A study of Homo sapiens with 8 samples.

Results

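The 8 liver-type genes BAAT, FGA, FGB, FGG, FGL1, SERPINA1, HNF4A and FOXA2, were followed in A549 cells, a human lung adenocarcinoma line. They were chosen by name, as 8 of the 19053 named genes on the array, with the treated-to-control ratios of these arrays in view, since BAAT was among the largest falls. The values below therefore describe these genes and carry no p-value. The cells were exposed to an ethanol extract of Descurainia sophia seeds (EEDS) at 1.25, 5 or 20 μg/mL, or to helveticoside, a cardiac glycoside contained in that extract, at 3.75, 15 or 60 nM. Each of the 2 series had its own vehicle control. All cells were unmodified A549 in the same medium, and the labels give 48 h with the drug whereas the methods give 24 h for the arrays. RNA of 3 cultures was mixed before labelling and went on 1 one-colour Agilent array per dose or control, 8 in all, so the spread between cultures could not be measured.

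Hepatocytes secrete most plasma proteins. Fibrinogen, the precursor of the clot, is built from the chains encoded by FGA, FGB and FGG, and SERPINA1 encodes alpha-1-antitrypsin, an inhibitor of neutrophil elastase. FGL1 encodes a secreted protein related to the fibrinogen chains. BAAT is the peroxisomal enzyme that joins bile acids to glycine or taurine. HNF4A and FOXA2 are transcription factors of liver and other endoderm-derived tissues, and binding sites for HNF1, C/EBP, FOXA and HNF4 factors are typical of liver promoters. The arrays show how these genes stood at each dose of the extract and of the pure compound.

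FGB, FGA and FGG lie next to each other in this order in the RefSeq annotation (GRCh38.p14), with no other gene between them. The sequence before the start of the 3 fibrinogen genes, whose ratios differed at the doses used, and of BAAT, which was lowered most, is shown for comparison. Each window is the 250 bases before a start annotated in RefSeq, 5′ to 3′ on the strand of the gene, and capitals mark motif matches. The fibrinogen windows lie directly before the annotated gene. The BAAT window lies inside the annotated gene, which reaches base 101385006, so the bases before that outermost start were not searched.
FGB, chr4:154562730-154562979, plus strand: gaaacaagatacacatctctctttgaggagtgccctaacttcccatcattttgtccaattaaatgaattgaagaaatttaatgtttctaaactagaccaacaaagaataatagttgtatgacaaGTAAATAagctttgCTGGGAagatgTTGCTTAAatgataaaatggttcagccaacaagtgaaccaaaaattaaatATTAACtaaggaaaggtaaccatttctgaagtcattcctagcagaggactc
FGA, chr4:154590743-154590992, minus strand: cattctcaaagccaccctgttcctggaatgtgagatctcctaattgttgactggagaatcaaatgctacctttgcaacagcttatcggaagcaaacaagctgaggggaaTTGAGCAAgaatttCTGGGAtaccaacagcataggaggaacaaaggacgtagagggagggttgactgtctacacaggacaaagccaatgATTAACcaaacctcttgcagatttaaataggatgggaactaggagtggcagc
FGG, chr4:154612657-154612906, minus strand: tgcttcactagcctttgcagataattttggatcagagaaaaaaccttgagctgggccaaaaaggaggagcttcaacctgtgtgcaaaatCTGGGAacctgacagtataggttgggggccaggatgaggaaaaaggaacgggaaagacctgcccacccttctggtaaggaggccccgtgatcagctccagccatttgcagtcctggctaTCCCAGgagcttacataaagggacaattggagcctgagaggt
BAAT, chr9:101383874-101384123, minus strand: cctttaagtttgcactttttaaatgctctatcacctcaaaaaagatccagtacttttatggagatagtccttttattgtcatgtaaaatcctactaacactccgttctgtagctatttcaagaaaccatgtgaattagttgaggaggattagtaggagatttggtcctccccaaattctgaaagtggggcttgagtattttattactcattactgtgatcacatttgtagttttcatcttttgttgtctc

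The 7 motifs below were searched on both strands: GTTAAT (HNF1 half-site), CAAAGTCCA (HNF4), TGTTTAC and TATTTAC (FOXA), TTGCNNAA (C/EBP), CTGGGA (interleukin 6 response element) and the core promoter box TATAAA. The table of promoters held 6 of the 8 genes. FGL1 and FOXA2 were not matched. In FGB the HNF1 half-site begins 51 bases before the start, C/EBP 101, the interleukin 6 element 112 and FOXA 126 bases before it. FGA held the HNF1 half-site at 52, the interleukin 6 element at 127 and C/EBP at 141 bases before the start. FGG held the interleukin 6 element only, at 42 and at 161 bases before the start. The matches did not overlap each other. None of the 7 motifs was found in the BAAT window or in those of SERPINA1 and HNF4A. The SERPINA1 and HNF4A windows lie directly before the outermost annotated start of the gene. Starts inside these 2 genes were not searched, so nothing is read about their other promoters. Among 35116 promoter windows of the same length, 6.23% held the HNF1 half-site, 9.05% C/EBP, 28.7% the interleukin 6 element, 2.39% TATTTAC, 2.98% TGTTTAC, 10.7% the core promoter box and 0.325% the HNF4 repeat. These are matches of letters and not measured binding.

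The values are log2 quantile-normalized intensities, and a ratio is the log2 difference between a treated array and the vehicle control of its own series. The scanner software gave errors of 10.0 to 22.1% for the members' signals that were well above background, from 1 spot per probe. The error printed after ± is the error of the log2 ratio that follows from these. Between the 2 vehicle control arrays, the log2 ratio had an SD of 0.48 over the 11491 genes that were well above background on all 8 arrays. No spot was saturated, and 54.5 to 64.9% of probes were well above background on an array. Of 10 A549 markers on the array, such as KRT8, KRT18 and ALDH1A1, 10 were well above background on all 8 arrays, against 3 of 5 leukocyte and 1 of 5 fibroblast markers. Of 9 hepatocyte markers, ALB, TTR, APOA2, AHSG, CYP2E1 and TAT were well above background on none of the arrays, whereas APOA1 and CPS1 were on all 8 and CYP3A4 on 5. Of a longer list of 38 acute-phase and other secreted liver proteins, 22 were well above background on 1 or more arrays and 13 on all 8.

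BAAT lost most of its signal with both agents. In the EEDS series its log2 level was 9.40 on the control array, 8.14 at 1.25 μg/mL, 4.47 at 5 μg/mL and 3.47 at 20 μg/mL. In the helveticoside series it was 9.52 on the control array, 8.50 at 3.75 nM, 5.38 at 15 nM and 2.96 at 60 nM. The lowest dose of each agent was already below its control, and the probe was no longer well above background at the middle and top doses, so that no order is read between those 2 doses. The log2 ratio was −1.26 ± 0.21 at 1.25 μg/mL and −1.02 ± 0.21 at 3.75 nM. Set against the lowest signal that was well above background on the dim array, or against the probe's own signal where that was higher, BAAT was at least 24.9-fold lower at 5 μg/mL, at least 24.2-fold lower at 20 μg/mL, at least 17.7-fold lower at 15 nM and at least 16.6-fold lower at 60 nM. These bounds hold for the processed signal used here and are −4.64, −4.60, −4.15 and −4.05 on the log2 scale. In the deposited processed values the log2 ratios were −4.26, −4.79, −2.53 and −3.39, in the same order. The scanned median signal was 28.0 times the local background on the EEDS control and 2.23 times at 20 μg/mL, and 27.9 times on the helveticoside control and 3.45 times at 60 nM. A smaller number of cells with BAAT and less BAAT RNA per cell cannot be told apart in these lysates.

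**Figure D1:**
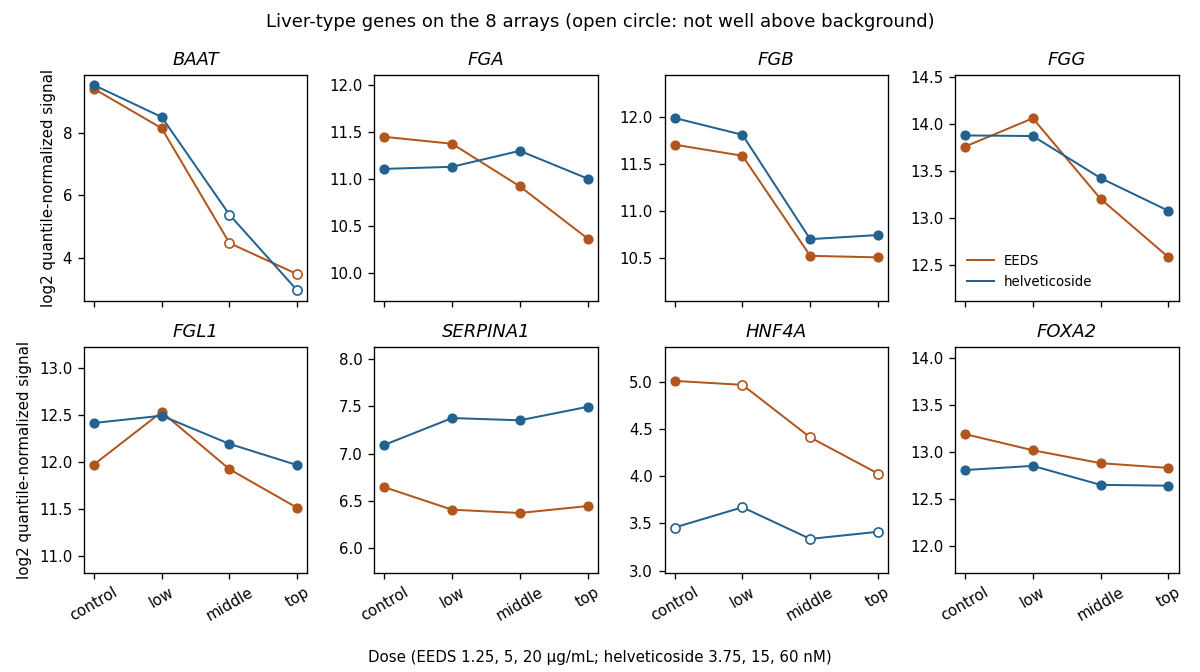
Log2 quantile-normalized signal of the 8 liver-type genes (vertical axes, each spanning its own range) on the 8 arrays by dose, with EEDS and helveticoside as separate lines and 1 array per point. Open circles mark values not well above background, as for BAAT at the middle and top doses, where it was at 2.96 to 5.38 against 9.40 and 9.52 on the control arrays.

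Genes whose dose profile was closest to BAAT were sought among 12382 genes that were well above background on both control arrays, by the root mean square difference of the log2 ratios over the 6 treated arrays. The closest were DACT2 at 0.56, LIAT1 at 0.85 and CBR3 at 1.01. Since 4 of the 6 BAAT values were not well above background, these distances rest in part on signals below detection and are only a description. DACT2, a regulator of Wnt signalling, was measured at −2.16, −4.88 and −6.05 at the rising doses of EEDS and at −1.34, −4.64 and −5.73 at those of helveticoside. CBR3 encodes a carbonyl reductase. The genes closest to FGB were TMEM130 at 0.10, CCT3 at 0.14 and MRTFB at 0.14, and 45.1% of the candidates came within 1 of it.

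Of the fibrinogen chains, FGB, the beta chain, was the only one below the 2-fold line with both agents by its brightest probe. Its log2 level was 11.70 on the EEDS control and 11.58, 10.52 and 10.50 at rising doses. In the helveticoside series it was 11.99 on the control and 11.81, 10.70 and 10.74 at rising doses. The lowest dose of each agent stayed within the software error of the control, with log2 ratios of −0.12 ± 0.20 and −0.18 ± 0.20, and the middle and top doses formed a lower plateau. The ratios there were −1.18 and −1.20 for EEDS and −1.29 and −1.24 for helveticoside, each ± 0.20, which left 41.0 to 44.1% of the control signal.

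FGG, the gamma chain, had a log2 level of 13.76 on the EEDS control and of 14.06, 13.20 and 12.58 at rising doses. With helveticoside it went from 13.87 on the control to 13.87, 13.42 and 13.07. The signal was therefore above its control at 1.25 μg/mL, by 0.30 ± 0.20, and below it at the middle and top doses of both agents. At the top doses the log2 ratio was −1.17 ± 0.20 for EEDS and −0.80 ± 0.20 for helveticoside, 44.3% and 57.4% of the control.

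FGA, the alpha chain, was read by 3 probes, of which 2 were designed on the transcript record of the common alpha chain and 1 on that of the longer alpha-E chain. The probes are called by these records here, and where each lies was not analysed, so that a probe may read more than 1 FGA transcript. The brightest probe, on the alpha record, had a log2 level of 11.44 on the EEDS control and 11.37, 10.92 and 10.36 at rising doses. In the helveticoside series it had 11.10 on the control, 11.13 at 3.75 nM and 11.30 at 15 nM, and lay 0.10 under its control at 60 nM. With EEDS its ratio reached −1.08 ± 0.20 at the top dose. With helveticoside the ratios were 0.02, 0.19 and −0.10, all within the software error of 0.20, and the last became 0.04 with arrays scaled to their 75th percentile. The other alpha probe had log2 ratios of 0.02, −0.41 and −0.80 with EEDS and of 0.02, 0.03 and −0.28 with helveticoside. The alpha-E probe was lower with both agents, at −0.31, −1.18 and −1.19 with EEDS and at −0.17, −0.97 and −1.03 with helveticoside.

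The alpha-E probe and the brightest alpha probe thus gave different ratios on the same arrays. Their difference was −1.16 ± 0.30 at 15 nM and −0.92 ± 0.30 at 60 nM on the log2 scale, and −0.65 ± 0.29 at 5 μg/mL, each more than 2 software errors from 0. At 20 μg/mL it was −0.11 ± 0.29, and at the lowest doses it was −0.23 ± 0.29 and −0.19 ± 0.30. Against the other alpha probe it was −0.76 ± 0.29 at 5 μg/mL and −0.75 ± 0.31 at 60 nM, and it was also past 2 software errors at 15 nM. In the deposited processed values the alpha-E probe was at −0.59 and −0.69 at 15 and 60 nM, the other alpha probe at −0.02 and −0.19 and the brightest alpha probe at 0.23 and −0.03, so that the gaps between probes with helveticoside were smaller there. These errors cover the reading of 1 array and not the spread between cultures.

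**Figure D2:**
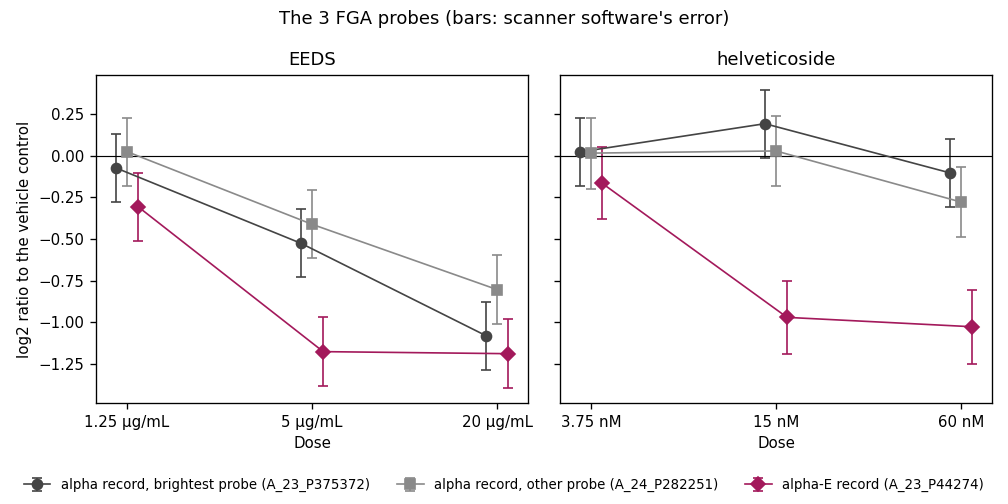
Log2 ratio to the vehicle control (vertical axis) of the 3 FGA probes by dose of EEDS (left) and helveticoside (right), 1 array per point, with bars of 1 software error. With helveticoside at 15 and 60 nM the alpha-E probe lay at −0.97 and −1.03 while the alpha probes lay between −0.28 and 0.19.

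FGL1, the fibrinogen-like secreted protein, had a log2 level of 11.97 on the EEDS control and of 12.53, 11.92 and 11.51 at rising doses. In the helveticoside series it had 12.42 on the control and 12.49, 12.19 and 11.97. It was above its control at the lowest dose of EEDS, by 0.56 ± 0.20, and below it at the top doses, with log2 ratios of −0.46 ± 0.20 for EEDS and −0.45 ± 0.20 for helveticoside. The 2 control arrays differed by 0.44 for this gene, which is as large as the top-dose ratios.

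SERPINA1 was below its control on the EEDS arrays and above it on the helveticoside arrays, by small amounts. Its log2 level was 6.64 on the EEDS control and 6.40, 6.37 and 6.44 at rising doses, and 7.09 on the helveticoside control and 7.38, 7.35 and 7.50 at rising doses. The ratios were −0.24, −0.27 and −0.20 for EEDS and 0.29, 0.26 and 0.40 for helveticoside, with software errors of 0.23 to 0.27. The 2 control arrays were 0.45 apart for this gene, more than any of these ratios.

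Of the transcription factors, FOXA2 was bright and its ratios were small. Its log2 level was 13.19 on the EEDS control and 13.02, 12.88 and 12.83 at rising doses, and 12.81 on the helveticoside control and 12.86, 12.65 and 12.65 at rising doses. The top-dose log2 ratios of −0.36 ± 0.20 and −0.17 ± 0.20 did not keep their sign under every setting, being 0.02 for EEDS against the other series' control and 0.11 for helveticoside with arrays scaled to their 75th percentile. HNF4A was at the limit of detection. Its probe was well above background on the EEDS control alone, at a log2 level of 5.02, followed by 4.97, 4.42 and 4.03 at rising doses, and the bound at 20 μg/mL was at least 1.16-fold lower. On the 4 helveticoside arrays it was between 3.34 and 3.67 and not well above background, so that no ratio can be given.

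By dose step, each of 4-fold, the fitted log2 slope of BAAT was −2.15 ± 0.29 for EEDS and −2.28 ± 0.29 for helveticoside. The SE after each slope comes from a linear fit over the 8 arrays with 4 residual degrees of freedom. It was moderated by limma, which borrows the spread of all genes fitted. The slope of FGB was −0.47 ± 0.13 and −0.48 ± 0.13, that of FGG −0.44 ± 0.12 and −0.29 ± 0.12, and that of FGA −0.37 ± 0.07 and −0.01 ± 0.07. FGL1 had −0.20 ± 0.12 and −0.16 ± 0.12, SERPINA1 −0.06 ± 0.07 and 0.12 ± 0.07, and FOXA2 −0.12 ± 0.04 and −0.07 ± 0.04. BAAT values not well above background enter these slopes as the processed signal that the scanner software gave. At 60 nM this signal was 10.0 with a software error of 9.99, so the BAAT slope with helveticoside is uncertain. In the deposited processed values the BAAT log2 ratio was −4.79 at 20 μg/mL and −3.39 at 60 nM. The doses of EEDS are masses of a mixture and those of helveticoside are molar. A difference between the slopes is therefore per dose step and not per amount of compound, and none is read for the members.

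At 1.25 μg/mL and at 3.75 nM, 1 of the 8 genes was over 2-fold lower, BAAT, where 3.67% and 4.31% of all genes were. At 5 μg/mL and at 15 nM there were 2, BAAT and FGB, against 8.5% and 8.07% of all genes. At 20 μg/mL there were 4, BAAT, FGA, FGB and FGG, against 14.6% of all genes, and at 60 nM again BAAT and FGB, against 12.8%. No member was over 2-fold higher at a top dose, where 13.4% of all genes were with EEDS and 10.8% with helveticoside. The members had been picked with these ratios known, so nothing is read from these counts. The median log2 ratio over the members was −1.03 at 20 μg/mL and −0.31 at 60 nM, against 0.02 and −0.01 over all genes. With BAAT and HNF4A at their bounds, it was −0.77 over 8 genes at 20 μg/mL, and −0.45 over the 7 genes other than HNF4A at 60 nM.

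Related genes were taken from 7 lists of 158 genes that did not include the 8 members, of which 156 were on the array and 93 were well above background on 1 or more arrays. The lists were written with earlier results of these data known. The trend calls below therefore describe these genes and are no independent support. At 20 μg/mL 27 of 155 tested were over 2-fold lower (17.4%) and 14 higher (9.03%), and at 60 nM 22 of 156 were lower (14.1%) and 16 higher (10.3%). These shares lie near those over all genes. The counts use the measured ratios, and those of dim probes are uncertain. By ratios well above background on both arrays or by bounds, 20 were over 2-fold lower and 13 higher with EEDS, and 15 lower and 6 higher with helveticoside. The share by bounds over all genes was not computed. By measured ratios, of all genes well above background on the control or top-dose array, 18.5% were lower and 16.3% higher with EEDS. With helveticoside 15.5% of such genes were lower and 12.5% higher. Nothing is read from the counts by bounds. Scaling the arrays to their 75th percentile changed the split to 45 lower and 12 higher with EEDS and to 25 lower and 10 higher with helveticoside. Under that scaling the median over all genes was itself at −0.36 at 20 μg/mL and −0.18 at 60 nM. The dose trend was tested with limma over the 8 arrays, with p-values adjusted over 19043 genes by the Benjamini-Hochberg procedure. The fit also takes measured values that were not well above background. Of the listed genes 14 fell and 5 rose with EEDS, where 7.86% of all genes fell and 7.28% rose. With helveticoside 9 fell and 7 rose, where 5.81% of all genes fell and 5.49% rose. Of the rising calls, 2 of 5 with EEDS and 4 of 7 with helveticoside were of genes well above background on none of the arrays. All the trend calls of this model, also those given by gene below, were lost when each series was fitted alone or 1 dose was left out. Medians are given over a whole list and over its genes well above background on the control or top-dose array of a series, for which the median over all genes was −0.01 with EEDS and 0.03 with helveticoside. Genes named below only to complete a count were added after their values were seen.

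Of the 19 other genes of bile acid synthesis, conjugation and transport, 5 were over 2-fold lower at the top dose of EEDS and 5 at that of helveticoside. These were the same 5 genes, ACOX2, AMACR, SLC51B, HSD17B4 and SLC27A5. Over all genes 14.6% were lower and 13.4% higher at 20 μg/mL, and 12.8% lower and 10.8% higher at 60 nM. The counts of the lists that follow stand beside the same shares. The lists are small, and no excess was tested. ACOX2, the peroxisomal oxidase that shortens the bile acid side chain, had log2 ratios of −0.42, −2.94 and −3.80 at rising doses of EEDS and of 0.18, −1.97 and −4.53 at those of helveticoside. AMACR, a racemase that prepares the side chain for this oxidation, was at −0.71, −1.54 and −3.06 with EEDS and at −0.38 and −1.04 at 3.75 and 15 nM, and at least 6.27-fold lower at 60 nM. HSD17B4, the bifunctional enzyme of the next peroxisomal steps, was at −0.31, −1.47 and −1.71 with EEDS and at −0.08, −1.34 and −1.87 with helveticoside. All 3 fell by the trend test with both agents, with limma adjusted p of 0.044 and 0.040 for ACOX2, 0.030 and 0.036 for AMACR, and 0.032 and 0.032 for HSD17B4.

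SLC51B, a subunit of the basolateral bile acid exporter, was at −2.67 at 20 μg/mL and −2.60 at 60 nM, with limma adjusted p of 0.053 and 0.072. SLC27A5, a ligase that activates bile acids for conjugation and that was among the genes added to complete a count, was at −1.09 and −1.31. CYP8B1, a sterol hydroxylase added likewise, was the 1 gene over 2-fold higher, at 20 μg/mL, and was well above background on that array alone. The median log2 ratio of the list was −0.05 with EEDS and −0.18 with helveticoside, against 0.02 and −0.01 over all genes, and 11 of its 19 genes were well above background on 1 or more arrays. Over its genes above background it was −0.95 with EEDS and −1.31 with helveticoside. CYP7A1, CYP7B1, CYP27A1, AKR1D1, ABCB11, SLC10A1, SLC51A and NR0B2 were well above background on none of the arrays. HSD3B7, SCP2, ACOT8 and FABP6 were so on all 8 arrays and stayed within 2-fold at both top doses.

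**Figure D3:**
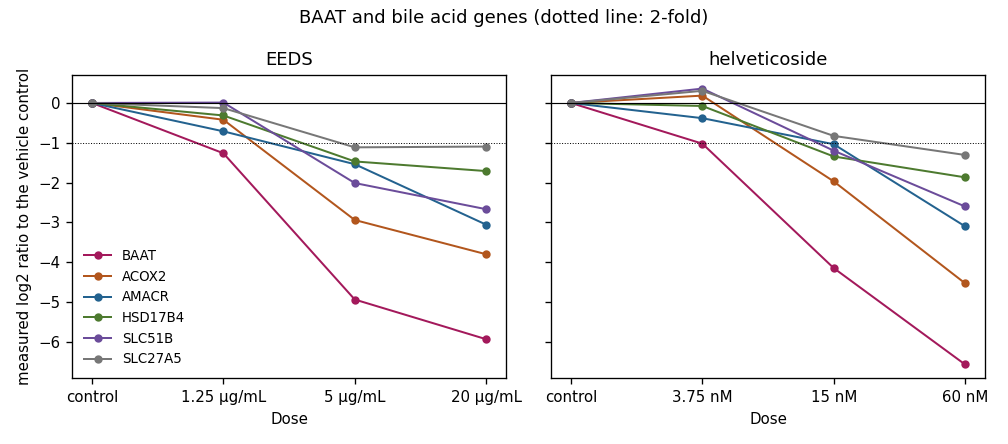
Measured log2 ratio to the vehicle control (vertical axis) of BAAT and 5 other bile acid genes by dose of EEDS (left) and helveticoside (right), 1 array per point, with the control at 0 and a dotted line at 2-fold. The 5 genes are those of the 19 on the list that were over 2-fold lower at both top doses. At the top doses the 5 genes lay between −1.09 and −4.53, and the BAAT values at the middle and top doses and AMACR at 60 nM were not well above background.

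Of 21 other clotting and fibrinolysis genes of hepatocytes on the array, 3 were over 2-fold lower with EEDS at the top dose, and with helveticoside 1 was lower and 1 higher. F12, coagulation factor XII, was 4.39-fold lower at 20 μg/mL and 4.31-fold lower at 60 nM, and fell by the trend test with both agents (limma adjusted p of 0.019 and 0.022). The other measured ratios past 2-fold with EEDS, of SERPINF2 and KNG1, came from dim signals that gave neither a ratio nor a bound. KLKB1 was the gene higher with helveticoside, by at least 2.17-fold. F2, which encodes prothrombin, was at −0.41 and −0.03 and PROS1, protein S, at 0.14 and −0.02, both named after their values were seen. The list had a median log2 ratio of 0.01 with EEDS and of −0.02 with helveticoside, and over its genes above background of −0.70 and −0.21.

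Of 38 acute-phase and other secreted liver proteins, 5 of 37 tested were over 2-fold lower and 2 higher with EEDS, and 5 of 38 were lower and 4 higher with helveticoside. By ratios above background or bounds, 3 were lower and 1 higher with EEDS, and 2 were lower with helveticoside. At 20 μg/mL LRG1 was 2.19-fold lower and HPX at least 2.46-fold higher. AFP, alpha-fetoprotein, was at least 2.29-fold lower at 60 nM. CFB, complement factor B, was at least 6.35-fold lower at 20 μg/mL and was below the limit on both helveticoside arrays compared. The list had a median of −0.12 with EEDS and of 0.00 with helveticoside on the log2 scale, and over its genes above background of −0.41 and −0.36. By the trend test AMBP, C3 and CFB fell and C4BPB rose with EEDS, and TTR, SAA1, SAA4 and FETUB rose with helveticoside. The 5 that rose were not well above background on any array.

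The 24 other liver-enriched transcription factors held 8 that were over 2-fold lower and 2 higher with EEDS, and 4 lower and 3 higher with helveticoside. CEBPA, a C/EBP factor, had log2 ratios of −0.90, −1.03 and −1.75 with EEDS and of −0.78, −1.02 and −1.47 with helveticoside. ONECUT1, also called HNF6, was at least 4.81-fold lower at 20 μg/mL and at least 3.75-fold lower at 60 nM. GATA6, an endoderm factor, rose to 7.84-fold and 6.68-fold above the control. These 3 genes passed the trend test with both agents, with limma adjusted p of 0.021 and 0.032 for CEBPA, 0.023 and 0.025 for ONECUT1, and 0.020 and 0.028 for GATA6. FOXA3, a relative of FOXA2, was 3.33-fold higher at 20 μg/mL and 2.22-fold higher at 60 nM but did not pass the trend test (adjusted p of 0.31 and 0.61). CEBPD, a further C/EBP factor, and NR1H4, the bile acid receptor FXR, fell with EEDS by the trend test (limma adjusted p of 0.026 and 0.048) and had adjusted p of 0.27 and 0.82 with helveticoside. CEBPD was 2.80-fold lower at 20 μg/mL and at −0.55 on the log2 scale at 60 nM, whereas NR1H4 had a bound of −0.59 at 20 μg/mL on that scale and was not well above background on the helveticoside arrays compared. The difference between the agents in slope per dose step, with doses in unlike units, was tested over all 19043 genes by limma. It gave 0 calls at an adjusted p under 0.05 and 524 genes at an unadjusted p under 0.05. With helveticoside the genes past 2-fold were ONECUT1, CEBPA, NR5A2 and NR1I3, and FOXA3, GATA6 and NR1I2, of which NR1I3 and NR1I2 were well above background on no array. The median log2 ratio of the list was −0.65 with EEDS and −0.10 with helveticoside, and over its genes above background −0.82 and −0.16.

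Of 12 genes of interleukin 6 and glucocorticoid signalling, which raise fibrinogen synthesis in liver, 6 were over 2-fold higher and 0 lower with EEDS, and 4 were higher and 1 lower with helveticoside. SOCS3, the feedback inhibitor of interleukin 6 signalling, was above its control at all doses and rose by the trend test, with log2 ratios of 1.68, 2.13 and 3.34 with EEDS and of 1.60, 1.71 and 2.97 with helveticoside (limma adjusted p of the trend 0.019 and 0.029). IL6R, the receptor, was 3.76-fold higher at 20 μg/mL and at least 2.72-fold higher at 60 nM (adjusted p of 0.027 and 0.046). IL6 itself was well above background on 1 array, at 20 μg/mL, where it was at least 3.25-fold higher. The gene lower with helveticoside was JAK2, and STAT3, which carries the interleukin 6 signal to the nucleus, was at 1.12 and 0.98 at the top doses. LIFR, a related receptor, was 3.07-fold higher at 20 μg/mL and at least 1.31-fold higher at 60 nM. By ratios above background or bounds, 6 were higher with EEDS, and 2 were higher and 1 lower with helveticoside. The glucocorticoid receptor gene NR3C1 was at 0.84 and 0.38 at the top doses. FKBP5 was at −1.20 and −1.92 at the middle doses and at 0.05 and −0.82 at the top doses. Both were named after their values were seen. The list had a median log2 ratio of 0.98 with EEDS and of 0.47 with helveticoside, and over its genes above background of 0.98 and 0.38.

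Of 23 hepatocyte enzymes on the array, 5 were over 2-fold lower and 1 higher with EEDS, and 5 lower and 2 higher with helveticoside. CPS1, the first enzyme of the urea cycle, fell by the trend test with both agents (limma adjusted p of 0.013 and 0.027), being 3.58-fold lower at 20 μg/mL and 1.94-fold lower at 60 nM. HGD, an enzyme of tyrosine breakdown, was 11.7-fold lower at 20 μg/mL and 4.74-fold lower at 60 nM. ASS1, also of the urea cycle, was 2.80-fold and 2.17-fold lower, and HPD, of tyrosine breakdown, was at least 1.56-fold lower with EEDS and below the limit with helveticoside. GLYAT, which joins glycine to acyl groups, was 3.61-fold higher at 20 μg/mL and at least 1.12-fold higher at 60 nM. The count with EEDS was completed by TDO2, and that with helveticoside by TDO2, UGT2B7 and TAT, of which TDO2 and TAT were well above background on no array. The median log2 ratio of the list was 0.02 with EEDS and −0.03 with helveticoside, and 8 of its 23 genes were well above background on 1 or more arrays. Over its genes above background it was −1.06 with EEDS and −1.04 with helveticoside.

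Of the 19 other genes with a fibrinogen-like domain, 1 was over 2-fold lower and 2 were higher at each top dose. With EEDS these were ANGPTL2, at least 2.08-fold lower, and ANGPT4 and ANGPTL4. With helveticoside the measured ratios of ANGPT1 and TNC came from signals not well above background on either array, which left ANGPTL4. ANGPTL4, a secreted inhibitor of lipoprotein lipase, was 2.84-fold higher at 20 μg/mL and 2.65-fold higher at 60 nM, and did not pass the trend test (adjusted p of 0.26 and 0.29). The median log2 ratio of this list was 0.01 with EEDS and 0.00 with helveticoside, and over its genes above background −0.02 and 0.19. Of the 10 A549 markers 3 were over 2-fold lower with EEDS and 4 with helveticoside, AKR1C3 and AKR1B10 with both, and ALDH3A1 and AKR1C1 with helveticoside. The leukocyte marker CD14 was 2.97-fold and 4.85-fold lower. The other leukocyte markers above background were not lower. CD68 was 1.86-fold and 1.92-fold higher, and PTPRC was at 0.20 and 0.20 on the log2 scale. The part of these shifts in the members' values was not tested.

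**Figure D4:**
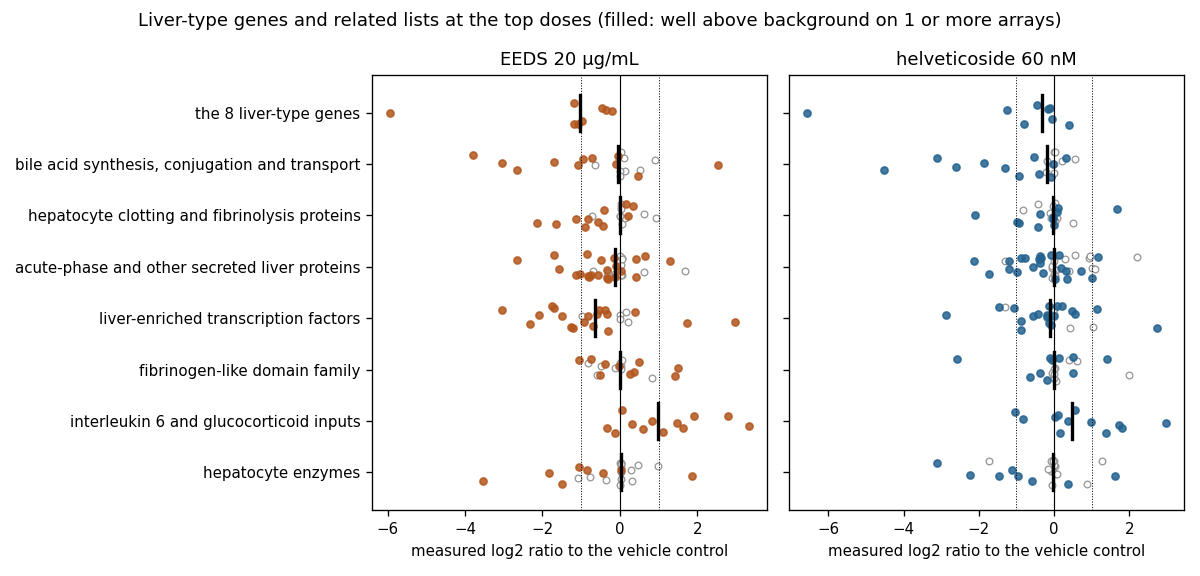
Measured log2 ratio to the vehicle control (horizontal axis) of the 8 liver-type genes and of the genes of 7 related lists at the top dose of EEDS (left) and helveticoside (right), 1 point per gene, with dotted lines at 2-fold and a black bar at each median. The median of the 8 genes lay at −1.03 and −0.31, that of the interleukin 6 and glucocorticoid list at 0.98 and 0.47.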

How the data were processed

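The authors deposited intensity values of each spot as the scanner software wrote them, with the local background and a background-subtracted processed signal, and a table of processed intensity values that, from its values, holds the median signal minus background, quantile-normalized within each series. Here the processed signal was averaged per probe without control and outlier spots, quantile-normalized over the 8 arrays (as in the methods, with detection at 1.4 times the local background) and log2-transformed. Of 34127 probes 24824 matched 1 of 19053 genes (RefSeq, GRCh38.p14), and the brightest probe stood for a gene. Dose trends used limma 3.58.1 in R 4.3.3 (statmod 1.5.0), with 1 line per series, Benjamini-Hochberg adjustment and a threshold of 0.05, and the fit was tested on simulated data. With 1 array per dose, the number of arrays limits the precision. Slide, scan and other batches were not analysed here. The members and lists were chosen with earlier results of these data known. Besides the members, up to 4 genes per list are named that were past 2-fold at both top doses in 1 direction and up to 4 that passed the trend test with both agents. The alternatives tried were other background corrections, scalings, value sources, filters, probe rules, control arrays and models. Other values came from Python 3.11.15, numpy 2.4.6 and pandas 2.3.3. Some genes of the lists enter the counts but are not reported here by name.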

Additional observations from a re-analysis of the deposited data

Results flagged for a closer look

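SERPINA1 was below its control on all 3 EEDS arrays and above it on all 3 helveticoside arrays, and its log2 ratio at the top dose differed by −0.61 (EEDS minus helveticoside). This difference at the top dose was not tested, since each dose had 1 array and the doses are in different units. The limma test of the slope difference between the agents, which covered all genes, gave 0 calls at an adjusted p under 0.05.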

How the results depend on the processing

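Under the 9 alternatives for signal, scaling, filter, probe and control, 3 to 5 members were over 2-fold lower at 20 μg/mL and 2 at 60 nM, with none higher. The members counted were not always the same. At 60 nM against the other series' control, HNF4A was past 2-fold at −1.60 and FGB was not, at −0.96. At 20 μg/mL HNF4A was counted with the 75th percentile and with quantiles within each series. Its signal at both top doses was not well above background. BAAT kept its direction, at −6.81 to −3.10 with EEDS and −6.57 to −3.39 with helveticoside on the log2 scale at the top doses. FGB stayed between −1.48 and −1.07 and between −1.24 and −0.96, and FGG between −1.29 and −0.88 and between −0.83 and −0.46. FGA with EEDS ranged from −1.10 to −0.74. It was less than 2-fold lower with the signal as scanned, normexp, the 75th percentile and the other series' control. With helveticoside FGA ranged from −0.47, as the mean of its probes, to 0.04. HNF4A ranged from −1.65 to 0.57 with EEDS, the latter against the other series' control. With the 75th percentile the median of all genes lay at −0.19, −0.21 and −0.36 at rising EEDS doses and at 0.14, −0.12 and −0.18 at rising helveticoside doses.

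For the related lists, the signal as scanned and normexp each gave 14 lower and 7 higher at 20 μg/mL. At 60 nM the signal as scanned gave 11 lower and normexp 12, with 3 higher in both. The 75th percentile gave 45 lower at 20 μg/mL and 10 higher at 60 nM. The deposited processed values gave 10 lower and 3 higher at 60 nM, and the filter on probes well above background 6 higher. The rising trend calls with helveticoside were 2 with the signal as scanned, normexp and the deposited values, and 3 with the 75th percentile and the stricter filter. With the deposited values 8 genes rose with EEDS. With each series fitted alone, and without the lowest, the middle or the top dose, falling and rising trend calls were 0 by limma for both agents, where fewer arrays enter the fit. At an unadjusted p under 0.05 these fits held 15 to 26 falling and 7 to 14 rising genes with EEDS and 7 to 19 falling and 8 to 12 rising with helveticoside. The cause of the other shifts was not tested. No paired analysis was possible because each dose had 1 array and the labels give no replicate numbers. The weak signals of HNF4A and of BAAT at the higher doses limit their values to bounds.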
